A study of Rattus norvegicus with 12 samples.

Results

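The podocyte slit diaphragm genes described here are Nphs1, Podxl, Wt1, Synpo, Cd2ap, Ptpro, Magi2 and Kirrel, 8 genes chosen by symbol and looked up in both deposited tables, which list 22132 entries for the control and adenine groups and 32623 for the sham and UUO groups. Of the 8 genes, 7 were listed under these symbols and Kirrel was listed as Kirrel1, for which RefSeq gives Kirrel as a synonym. RNA was sequenced from kidney tissue of 12 male SD rats (WT by the labels, 8 weeks old at purchase), 3 separate rats in each of 4 groups, to compare renal fibrosis in a toxic and an obstructive model. The adenine group was gavaged daily for 3 weeks with adenine (220 mg/kg) and the control group with saline. Rats of the UUO group had unilateral ureteral obstruction, with the left ureter ligated, and kidneys were taken after 2 weeks, as from the sham group. Expression is given as FPKM, fragment counts divided by transcript length and by the total of mapped fragments, so levels of different genes are compared per length.

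Podocytes are the epithelial cells that cover the glomerular capillaries, and their interlocking foot processes are joined by the slit diaphragm, the last layer of the filtration barrier. Nephrin (Nphs1) and Neph1 (Kirrel1) are immunoglobulin superfamily proteins whose extracellular parts meet across the slit, and CD2AP and MAGI-2 are intracellular adaptor and scaffold proteins that tie the complex to actin. Synaptopodin (Synpo) is an actin-associated protein of the foot process, podocalyxin (Podxl) a sialomucin of its free surface, Ptpro a receptor tyrosine phosphatase of the same surface, and WT1 (Wt1) a transcription factor that mature podocytes retain.

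All 8 podocyte genes matched an entry in the RefSeq promoter table (assembly GRCr8, which need not be the build behind the deposited values). The 250 bases before the start are shown for Nphs1, Wt1 and Kirrel1. Nphs1 and Wt1 correlated over the 12 kidneys (Pearson's r = 0.937), though their order was reversed among the UUO rats. The fitted change of Kirrel1 had the opposite sign to theirs in both models. Capitals mark the E-box CANNTG and the motif TGCTGA on either strand.
Nphs1, chr1:94848011-94848260, plus strand: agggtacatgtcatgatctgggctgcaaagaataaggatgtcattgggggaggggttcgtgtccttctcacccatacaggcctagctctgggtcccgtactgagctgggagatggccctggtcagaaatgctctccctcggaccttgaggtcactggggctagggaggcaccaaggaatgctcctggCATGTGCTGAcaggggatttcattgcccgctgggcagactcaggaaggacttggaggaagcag
Wt1, chr3:112021759-112022008, plus strand: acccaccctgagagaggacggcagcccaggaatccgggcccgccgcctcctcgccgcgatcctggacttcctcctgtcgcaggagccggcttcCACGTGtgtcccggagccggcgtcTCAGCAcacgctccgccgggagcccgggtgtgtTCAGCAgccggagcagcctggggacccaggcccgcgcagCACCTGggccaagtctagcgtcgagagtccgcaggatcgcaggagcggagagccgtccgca
Kirrel1, chr2:174912961-174913210, minus strand: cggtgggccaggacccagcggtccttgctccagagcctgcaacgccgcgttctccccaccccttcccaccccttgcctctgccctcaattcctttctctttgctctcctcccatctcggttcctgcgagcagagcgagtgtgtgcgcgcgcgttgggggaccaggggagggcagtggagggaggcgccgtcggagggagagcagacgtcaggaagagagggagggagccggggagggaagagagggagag
These motifs, the GC box GGGCGG, the EGR- and WT1-type site GCGGGGGCG and the WT1 response element core GCGTGGGAG were searched on both strands from 250 bases before to 50 after the start, so a window was 300 bases long. Nphs1 held 1 E-box and 1 TGCTGA, which overlap each other, and Wt1 held 2 of each. Both motifs together were found in 14.1% of the 33469 promoters searched, the E-box in 72.1% and TGCTGA in 18.4%. Kirrel1 and Magi2 held none of the 5 motifs. GC boxes were found in Podxl (7 matches), Synpo (3) and Ptpro (1) and in 33.1% of all promoters, and GCGGGGGCG only in Cd2ap, which also held 4 E-boxes, against 2.73% of all promoters. GCGTGGGAG was in none of the 8 windows and in 0.388% of all. These are matches of letters in a window and were not tested as binding sites.

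Read depth is not known from FPKM, which summed to between 564972 and 582725 in control, 468389 and 487770 in adenine, 619664 and 630244 in sham and 528811 and 539011 in UUO kidneys. The median log2 fold change over all tested genes was 0.30 in the adenine and 0.62 in the UUO model, and near 0 after median-of-ratios scaling of FPKM (0.014 and 0.030). Some changes are therefore also given after this scaling. Values without a named scaling, and all differences between the models, are from FPKM as deposited. Podocyte markers were found in every kidney. Their lowest values were 5.66 FPKM for Podxl, 3.20 FPKM for Ptpro, 1.83 FPKM for Nphs1, 1.46 FPKM for Wt1 and 0.771 FPKM for Synpo. One library stood apart in these genes. In control rat 2, 7 of the 8 podocyte genes were below a ratio of 0.5 to the mean of the other 2 control rats, against 5.74% of all tested genes, and the ratio was 0.161 for Nphs1, 0.164 for Wt1, 0.182 for Synpo and 0.193 for Ptpro. Only Cd2ap, with a ratio of 0.806, was near the other rats there. The median log2 ratio of all tested genes in that kidney was -0.022. For some results of the adenine model the value without this rat is also given, and the others include it. In bulk tissue, fewer podocytes in the piece taken and less RNA per podocyte cannot be told apart.

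**Figure D1:**
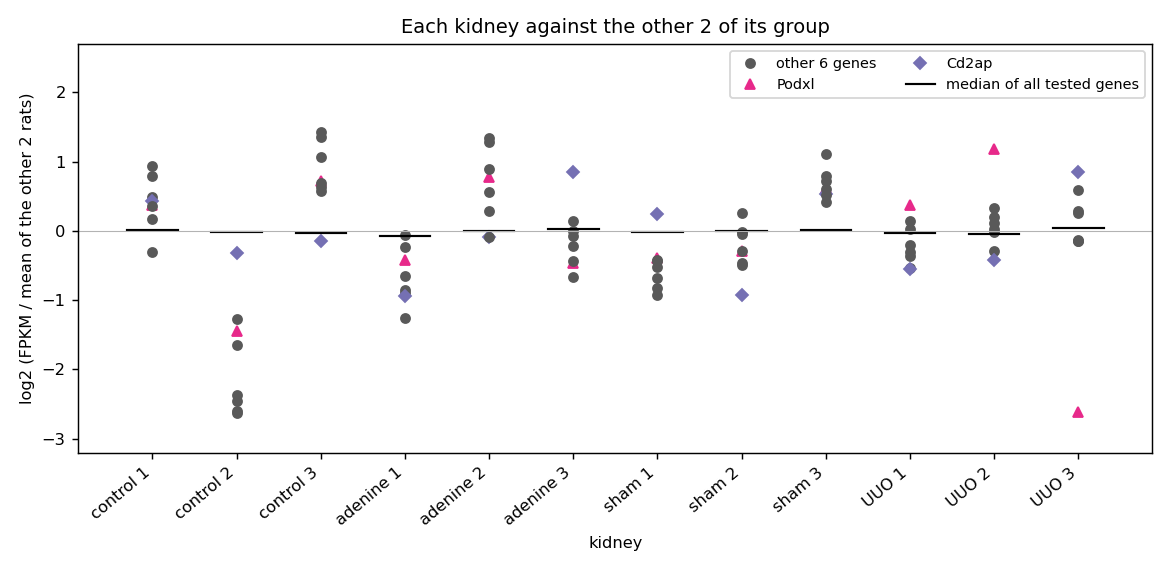
Log2 ratio of FPKM in each kidney to the mean of the other 2 rats of its group for the 8 podocyte genes (triangles, Podxl; diamonds, Cd2ap; dots, the other 6), with the median of all tested genes as a black line. Control rat 2 lies low for all but Cd2ap (Nphs1 ratio 0.161), and UUO rat 3 lies low for Podxl alone (ratio 0.163).

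Across the groups the order of the levels changed. In control and sham kidneys Podxl had the highest mean, 29.5 ± 13.9 FPKM and 38.3 ± 9.98 FPKM (SD, n = 3), followed by Ptpro at 12.1 ± 7.74 and 17.2 ± 5.71 FPKM and Nphs1 at 10.6 ± 7.33 and 12.5 ± 6.04 FPKM. In adenine kidneys the order was Ptpro, Kirrel1, Cd2ap, Podxl, Synpo, Nphs1, Wt1 and Magi2, and in UUO kidneys Podxl, Kirrel1, Ptpro, Cd2ap, Synpo, Nphs1, Wt1 and Magi2. Kirrel1 thus stood sixth in control, seventh in sham and second in both disease groups. Neighbours in these orders overlapped in most cases. The exceptions were Magi2, below all others in every group, Podxl over Ptpro in sham, Synpo over Nphs1 in both disease groups and, in adenine kidneys, Ptpro over Kirrel1 and Podxl over Synpo.

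**Figure D2:**
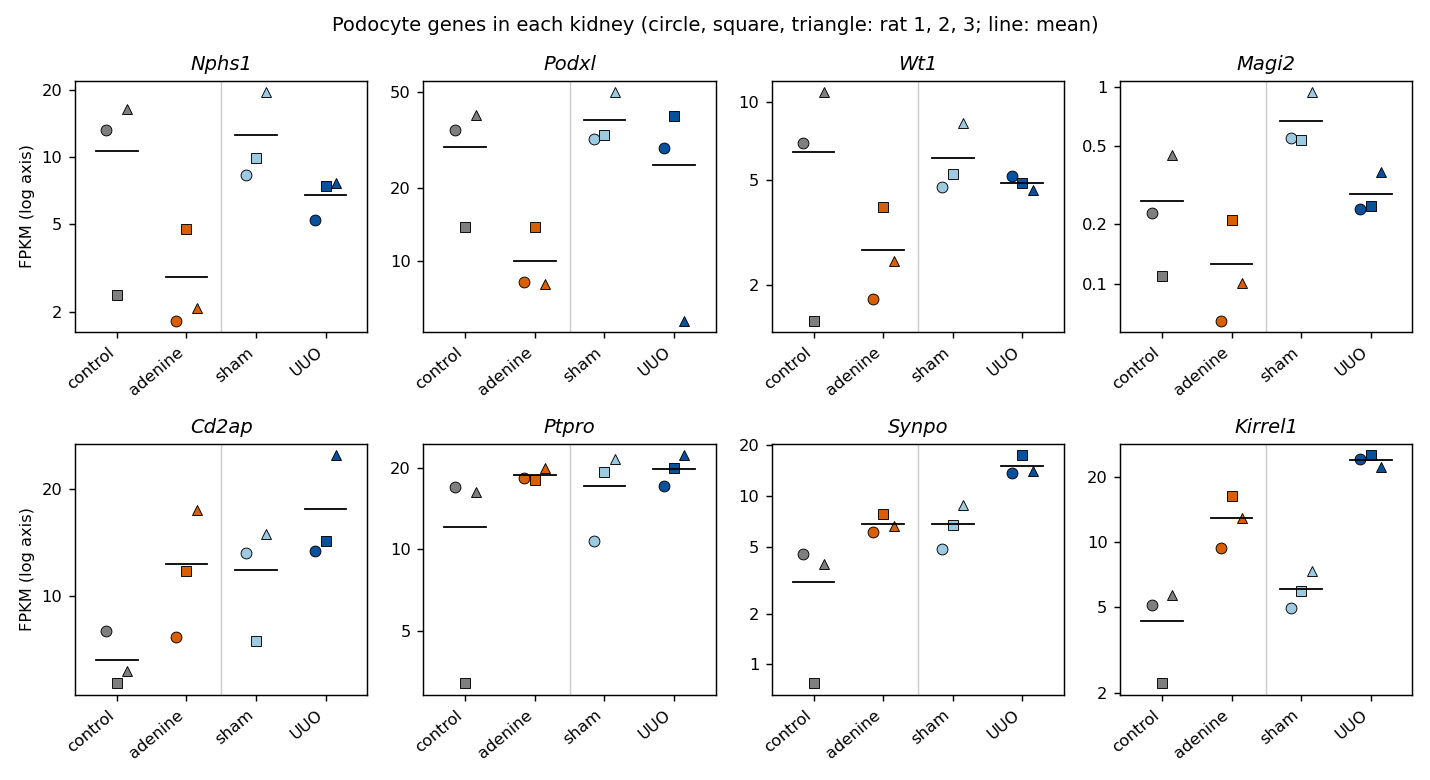
FPKM of the 8 podocyte genes in each kidney on log axes, with rats 1, 2 and 3 as circle, square and triangle and the group mean as a line; the control and adenine groups and the sham and UUO groups come from separate tables. Kirrel1 is higher in every diseased kidney than in its reference group, and the control square (rat 2) is the lowest control value for all 8 genes.

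Nphs1, the structural core of the slit diaphragm, was at 13.2, 2.38 and 16.4 FPKM in the control rats and at 1.83, 4.74 and 2.08 FPKM in the adenine rats. The adenine values were low except that control rat 2 lay among them, so the groups overlapped. In the adenine model the log2 fold change was -1.58 ± 0.75 (SE), with an adjusted p of 0.111 (limma, Benjamini-Hochberg), and without control rat 2 it was -2.43 with an adjusted p of 0.00532. In the sham rats Nphs1 was at 8.22, 9.83 and 19.4 FPKM and in the UUO rats at 5.17, 7.39 and 7.64 FPKM. Every UUO kidney was below every sham kidney. The log2 fold change was -0.80 ± 0.33, with an adjusted p of 0.0669 (limma), and after median-of-ratios scaling it was -1.39 with an adjusted p of 0.00875.

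Kirrel1 encodes Neph1, the partner of nephrin in the slit. It was at 5.07, 2.21 and 5.65 FPKM in control and at 9.31, 16.3 and 12.8 FPKM in adenine rats. It was at 4.95, 5.92 and 7.28 FPKM in sham and at 24.0, 25.1 and 22.3 FPKM in UUO rats. In both models every diseased kidney was above every reference kidney, and the UUO rats lay close together. Kirrel1 was upregulated with a log2 fold change of 1.62 ± 0.38 in the adenine model (adjusted p = 0.0101, limma) and 1.97 ± 0.15 in the UUO model (adjusted p = 6.92e-05, limma), a mean FPKM 2.97 and 3.94 times that of the reference group. It was called in both models under every alternative test and without any single rat; without control rat 2 the log2 fold change was 1.21, and after median-of-ratios scaling it was 1.33 and 1.38.

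Podxl was at 34.8, 13.8 and 40.1 FPKM in control and at 8.19, 13.8 and 8.00 FPKM in adenine rats. Control rat 2 and adenine rat 2 had nearly the same level, and the other control rats were far above all adenine rats. The gene was downregulated by the limma test, with a log2 fold change of -1.46 ± 0.43 and an adjusted p of 0.0239, and -1.94 (adjusted p = 0.0024) without control rat 2. The call was lost on leaving out control rat 1, control rat 3, adenine rat 1 or adenine rat 3 (adjusted p from 0.0687 to 0.0817). In sham rats Podxl was at 31.8, 33.3 and 49.8 FPKM and in UUO rats at 29.5, 39.9 and 5.66 FPKM. UUO rats 1 and 2 were within or near the sham range, and the value of UUO rat 3 was the lowest Podxl level of the 6 kidneys although its Nphs1, at 7.64 FPKM, was the highest of the UUO group. The log2 fold change of -0.99 ± 0.69 did not pass the test (adjusted p = 0.236, limma), and without UUO rat 3 it was -0.13.

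Wt1 was at 6.96, 1.46 and 10.8 FPKM in control and at 1.77, 3.95 and 2.47 FPKM in adenine rats. It was at 4.70, 5.29 and 8.25 FPKM in sham and at 5.22, 4.87 and 4.61 FPKM in UUO rats. Control rat 2 was the lowest of all, and the UUO range lay mostly inside the lower part of the sham range. The log2 fold changes of -0.88 ± 0.72 and -0.26 ± 0.22 did not pass the test (adjusted p = 0.323 and 0.315, limma). Without control rat 2 the adenine value was -1.71 (adjusted p = 0.0122), and after median-of-ratios scaling the UUO value was -0.86 (adjusted p = 0.013).

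Synpo, an actin regulator of the foot process, was at 4.53, 0.771 and 3.94 FPKM in control and at 6.15, 7.83 and 6.62 FPKM in adenine rats. It was at 4.85, 6.74 and 8.81 FPKM in sham and at 13.8, 17.5 and 14.1 FPKM in UUO rats. In both models all diseased kidneys were above all reference kidneys. The rise passed the test in the UUO model, with a log2 fold change of 1.18 ± 0.23 (adjusted p = 0.00318, limma), and not in the adenine model, with 1.45 ± 0.62 (adjusted p = 0.0806). Leaving out control rat 2 lowered the adenine value to 0.68 and brought it past the threshold (adjusted p = 0.0174). The UUO call was lost after median-of-ratios scaling (0.58, adjusted p = 0.0646).

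Ptpro and Cd2ap did not pass the test in either model. Ptpro was at 16.9, 3.20 and 16.3 FPKM in control, 18.3, 18.1 and 20.0 FPKM in adenine, 10.7, 19.3 and 21.5 FPKM in sham and 17.1, 20.0 and 22.3 FPKM in UUO rats. Apart from control rat 2 and sham rat 1 all kidneys were at a like level. Its log2 fold change in the adenine model was 0.95 ± 0.61 (adjusted p = 0.216, limma), 0.17 without control rat 2, and in the UUO model 0.26 ± 0.27 (adjusted p = 0.414), which turned to -0.34 after median-of-ratios scaling. Cd2ap was at 7.94, 5.66 and 6.12 FPKM in control, 7.64, 11.8 and 17.5 FPKM in adenine, 13.2, 7.44 and 15.0 FPKM in sham and 13.4, 14.3 and 25.0 FPKM in UUO rats. The third adenine rat and the third UUO rat had the highest levels of their tables, and the groups overlapped in both. The log2 fold changes were 0.83 ± 0.30 (adjusted p = 0.0517, limma) and 0.56 ± 0.33 (adjusted p = 0.169), and the UUO value was -0.035 after median-of-ratios scaling.

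Magi2, which encodes the scaffold protein MAGI-2, was the least abundant of the 8 genes, at 0.228, 0.109 and 0.453 FPKM in control and 0.0650, 0.210 and 0.101 FPKM in adenine rats, under the minimum of 0.5 FPKM in 3 of 6 samples that a gene needed to be tested. It was at 0.548, 0.536 and 0.938 FPKM in sham and at 0.240, 0.248 and 0.369 FPKM in UUO rats, so it met this minimum through the sham group alone. All UUO kidneys were below all sham kidneys. The fitted log2 fold change was -0.98 ± 0.34 (adjusted p = 0.0356, limma), and since a gene that enters only through its high group had to differ, the call is no support for a fall of the gene list. It was lost without the filter (adjusted p = 0.114) and on leaving out any UUO rat (adjusted p from 0.0688 to 0.131), and leaving out any sham rat took the gene below the minimum.

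Counted together, of the 7 genes tested in the adenine model 1 rose (Kirrel1) and 1 fell (Podxl), where 39.6% of all tested genes rose and 19.9% fell. Of the 8 tested in the UUO model 2 rose (Synpo and Kirrel1) and 1 fell (Magi2), where 56.1% rose and 14.4% fell. In either direction 59.4% and 70.5% of all tested genes passed. After median-of-ratios scaling the counts were again 1 and 1 in the adenine model, and 1 rose (Kirrel1) and 3 fell (Nphs1, Wt1 and Magi2) in the UUO model, where 29.1% and 28.4% of all tested genes rose and fell in the adenine and 28% and 28% in the UUO model. No podocyte gene met the threshold of DEGs (adjusted p below 0.05 with a log2 change of 2 or more in size), which 15.7% and 17.4% of tested genes met. Nphs1 met it in the adenine model without control rat 2, and Kirrel1 in the UUO model without sham rat 3 or without UUO rat 3. Without control rat 2, 2 of the genes rose and 3 fell in the adenine model, where 38.6% of all tested genes rose and 17.5% fell. The groups did not overlap for 3 genes in the adenine model (Synpo, Ptpro, Kirrel1) and for 4 in the UUO model (Nphs1, Synpo, Magi2, Kirrel1), beside 68% and 75.7% of all tested genes.

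**Figure D3:**
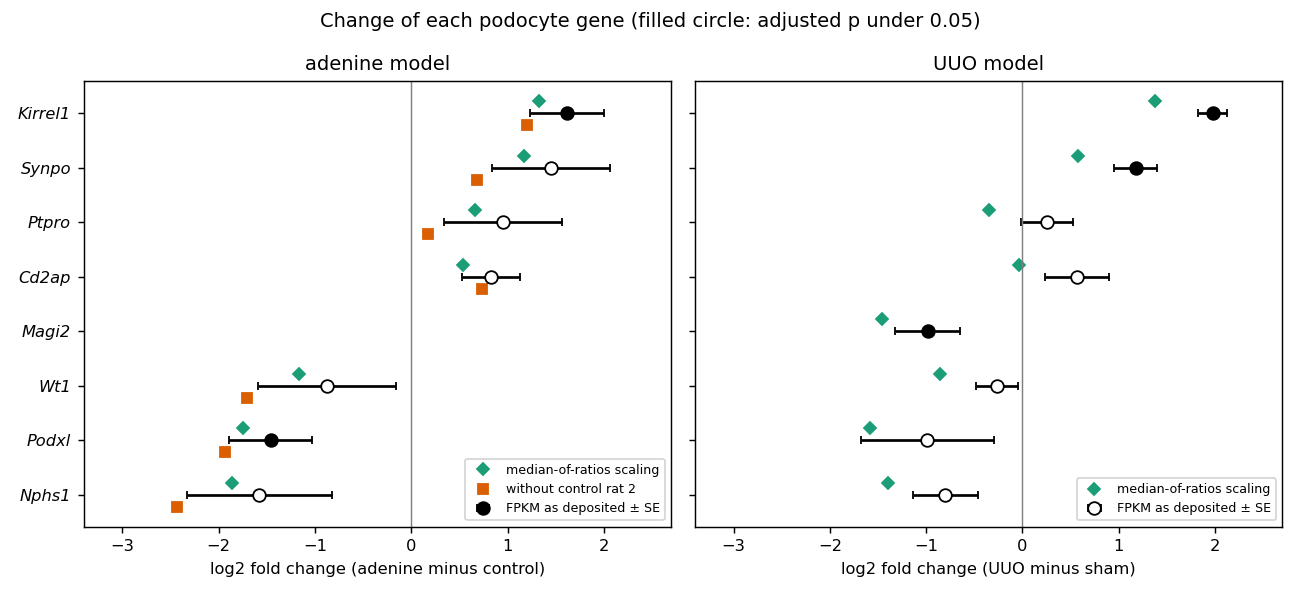
Log2 fold change of the 8 podocyte genes in the adenine model (left) and the UUO model (right); circles with SE bars are FPKM as deposited (filled where the adjusted p was under 0.05), diamonds median-of-ratios scaling and squares the fit without control rat 2. Kirrel1 lies right of 0 in every fit, Nphs1, Podxl and Wt1 lie left of 0, and Ptpro and Cd2ap in the UUO model change side with the scaling; Magi2 was not tested in the adenine model.

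Whether the models differed was tested gene by gene on FPKM as deposited, where the median change of all tested genes also differed (0.30 and 0.62). None of the 7 genes tested in both differed past the threshold, where 27% of the 13486 genes tested in both models did. The difference of the log2 fold changes (UUO minus adenine) was 0.78 for Nphs1 (95% interval -0.99 to 2.55, adjusted p = 0.511, limma estimates), 0.35 for Kirrel1 (-0.54 to 1.24, adjusted p = 0.553) and -0.70 for Ptpro (-2.13 to 0.74, adjusted p = 0.461). These intervals include large differences in either direction. Without control rat 2 the log2 fold changes of Nphs1 and Wt1 were lower in the adenine than in the UUO model, with differences of 1.64 (adjusted p = 0.0434) and 1.44 (adjusted p = 0.0319), so this result depends on that rat.

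Because a ratio of 2 genes in the same kidney does not depend on scaling between samples, each gene was also set against Nphs1. The log2 ratio of Synpo to Nphs1 was -1.54, -1.63 and -2.06 in control rats and 1.75, 0.72 and 1.67 in adenine rats. In sham rats it was -0.76, -0.54 and -1.14 and in UUO rats 1.41, 1.24 and 0.88. Synaptopodin transcripts were thus below nephrin transcripts in every reference kidney and above them in every diseased kidney, and control rat 2 lay with the other control rats. The mean ratio was 8.70-fold higher in the adenine and 3.99-fold higher in the UUO model (exact permutation test, two-sided, p = 0.1, the smallest p that 3 against 3 rats can give).

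The log2 ratio of Kirrel1 to Nphs1 was -1.38, -0.11 and -1.53 in control, 2.34, 1.78 and 2.62 in adenine, -0.73, -0.73 and -1.41 in sham and 2.22, 1.76 and 1.54 in UUO rats. As with Synpo, its sign separated diseased from reference kidneys. The ratio was 9.55-fold and 6.97-fold higher (exact permutation p = 0.1 each). Ptpro was 5.96-fold and 2.09-fold higher against Nphs1, Cd2ap 5.45-fold and 2.60-fold and Wt1 1.64-fold and 1.45-fold, each without overlap (exact permutation p = 0.1). Some of these groups nearly touched. The log2 ratio of Cd2ap was 1.25 in control rat 2 and 1.31 in adenine rat 2. That of Wt1 was -0.81 in sham rat 1 and -0.73 in UUO rat 3. The ratio of Podxl to Nphs1 overlapped between the groups in both models, with log2 differences of 0.14 (exact permutation p = 0.8) and -0.19 (p = 1). Each overlap rested on 1 rat: without control rat 2 the adenine difference was 0.53, without UUO rat 3 the UUO difference was 0.78, and the diseased kidneys then lay above the reference kidneys. Magi2 overlapped against Nphs1 in the adenine model, with a log2 difference of 0.60 (exact permutation p = 0.3), and was lower against it in all UUO than in all sham kidneys, with a difference of -0.41 (exact permutation p = 0.1) between groups that nearly touched, as both rats numbered 3 were at -4.37.

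In each model 5 of the other 7 podocyte genes were higher against Nphs1 in all diseased kidneys. The same held for 28.6% (adenine) and 72% (UUO) of the tested genes, so the UUO count is at the background. The adenine share depends on control rat 2, whose low Nphs1 raised the ratio of any gene that did not dip with it. The share without that rat was not computed, and Magi2 was not among the genes tested in the adenine model. No conclusion is drawn from the adenine count. The differences against Nphs1 in the adenine model were as large without control rat 2, at 3.18 on the log2 scale for Synpo, 3.70 for Kirrel1, 2.66 for Ptpro and 3.22 for Cd2ap.

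**Figure D4:**
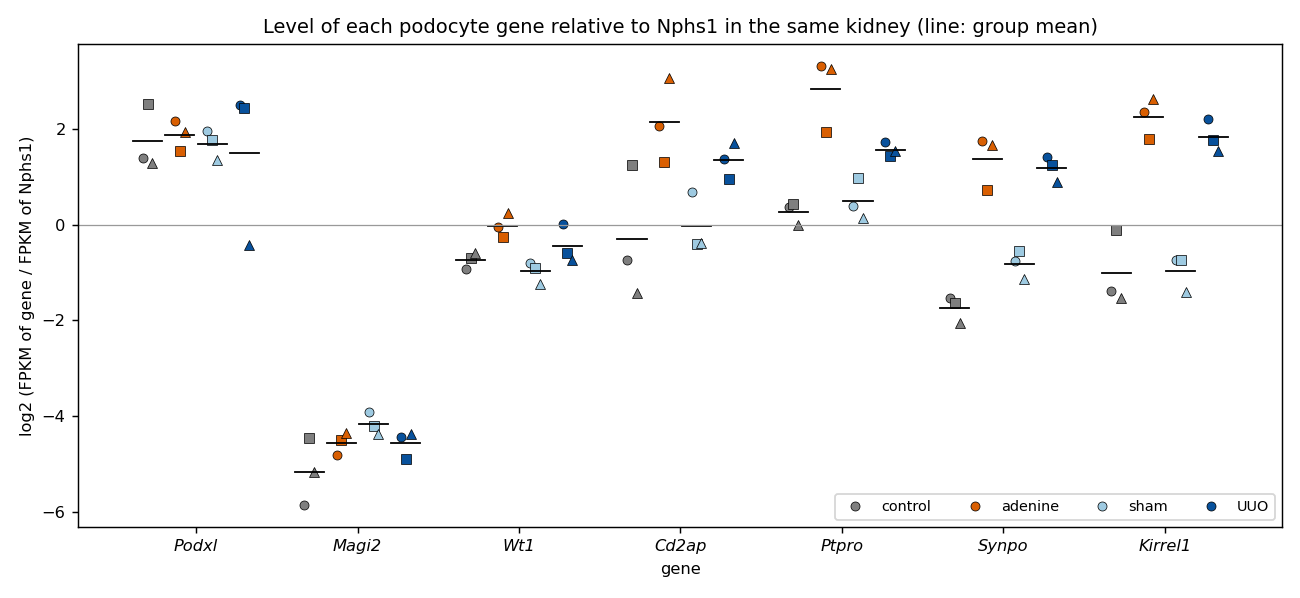
Log2 ratio of FPKM of each gene to FPKM of Nphs1 in the same kidney, by group (line, group mean; circle, square and triangle, rats 1, 2 and 3). Synpo and Kirrel1 are below 0 in all 6 reference kidneys and above 0 in all 6 diseased kidneys, while Podxl overlaps between groups and UUO rat 3 lies apart at -0.43.

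By Pearson's r over the 12 kidneys (log2 values centred on the reference group of each table, 13485 genes ranked), the genes most like Nphs1 were Ddn (r = 0.987), which encodes dendrin, a slit diaphragm-associated protein, Tmem52 (0.970), Slit2 (0.953), which encodes an axon guidance ligand, Wt1 (0.937) and Sema3g (0.933), a semaphorin. These kidneys share 2 tables and the loss in control rat 2, and r is given as a description. Without control rat 2, r was 0.986 for Ddn, 0.966 for Tmem52, 0.952 for Slit2, 0.953 for Wt1 and 0.954 for Sema3g over 11 kidneys. Ddn was at 7.39, 1.42 and 8.92 FPKM in control, 1.43, 2.39 and 1.08 FPKM in adenine, 4.35, 6.48 and 11.6 FPKM in sham and 3.24, 4.08 and 4.41 FPKM in UUO rats, which repeats the order of Nphs1 among the control, the sham and the UUO rats.

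Among the other podocyte genes Podxl ranked 400 of 13485 (r = 0.70). Ptpro ranked 3862 (0.19), Synpo 5060 (-0.024), Kirrel1 6730 (-0.26) and Cd2ap 6812 (-0.27), the last of these near the middle of the ranking. Without control rat 2 Podxl ranked 1670 (r = 0.71), and r was -0.13 for Ptpro, -0.45 for Synpo, -0.56 for Kirrel1 and -0.42 for Cd2ap. With the group means removed, which leaves the spread between rats of a group, r with Nphs1 was 0.955 for Wt1, 0.948 for Kirrel1, 0.922 for Synpo and 0.865 for Ptpro, and 0.485 for Podxl and 0.312 for Cd2ap. Without that rat these within-group values were 0.858, 0.841, 0.757, 0.488, 0.216 and 0.299. Kirrel1 and Synpo thus correlated with Nphs1 over the rats within groups, while their fitted changes between groups had the opposite sign. This did not hold in every group, as Kirrel1 was lowest in UUO rat 3 (22.3 FPKM), where Nphs1 was the highest of that group (7.64 FPKM). The share of all genes with a within-group r this high was not computed.

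Other genes of the podocyte were taken from 4 lists. Of the other slit diaphragm proteins and adaptors, 7 of 14 tested rose and 1 fell in the adenine model, and 11 of 14 rose and 1 fell in the UUO model, with median log2 fold changes of 0.44 and 1.03 beside 0.30 and 0.62 over all genes. Of all tested genes 39.6% rose and 19.9% fell in the adenine and 56.1% and 14.4% in the UUO model, and the counts of each list are to be read against these shares. The cation channel gene Trpc6 rose from 0.659 ± 0.151 to 3.35 ± 1.05 FPKM (SD, n = 3) in the adenine model and from 0.603 ± 0.110 to 2.86 ± 0.729 FPKM in the UUO model. Fyn, the Src-family kinase that phosphorylates nephrin, rose by 1.94 and 1.74 on the log2 scale, and Iqgap1, a scaffold protein that binds nephrin, by 2.06 and 1.14. The polarity kinases of the slit moved apart, with log2 fold changes of 0.85 and 1.38 for Prkci and -0.63 and -0.37 for Prkcz, all past the test. After median-of-ratios scaling each of these genes kept its sign, and the list split into 4 that rose and 2 that fell in the adenine model and 7 that rose and 3 that fell in the UUO model. The UUO call of Prkcz was lost without sham rat 2, sham rat 3 or any UUO rat, which left 0 genes of the list that fell by limma.

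Of the actin cytoskeleton and foot process genes, 10 of 16 tested rose and 3 fell in the adenine model, and 12 of 15 rose and 2 fell in the UUO model (6 and 2 after median-of-ratios scaling, with which 28% of all tested genes rose and 28% fell). The largest rises in the adenine model were those of the formin gene Inf2 (log2 fold change 3.00), which the other table does not list, the anillin gene Anln (2.41) and the motor gene Myo1e (1.50), and in the UUO model those of the integrin genes Itga3 (1.67) and Itgb1 (1.65) and of Anln (1.61). Anln was low throughout, reached the minimum of 0.5 FPKM in the adenine table in the adenine kidneys alone, so that it had to differ there, and lost its UUO call after median-of-ratios scaling (adjusted p = 0.167). Rhpn1, which encodes rhophilin 1, fell in both models, from 53.3 ± 8.03 to 11.5 ± 2.03 FPKM and from 40.7 ± 10.9 to 9.53 ± 1.49 FPKM. Arhgap24, a Rac-directed GTPase activator, fell by 1.33 and 1.19 on the log2 scale. In control rat 2 Rhpn1 was at 44.1 FPKM (57.5 and 58.4 FPKM in rats 1 and 3) and Arhgap24 at 72.2 FPKM (78.3 and 87.2 FPKM). Which cells these transcripts came from was not tested. Tns2, tensin 2, fell in the adenine model (-0.51) and rose in the UUO model (0.88), a difference of 1.38 between the models (adjusted p = 0.000817). Its UUO call was lost after median-of-ratios scaling (0.28, adjusted p = 0.182, limma) and its adenine call after rescaling to the same sum (-0.24, adjusted p = 0.142).

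**Figure D5:**
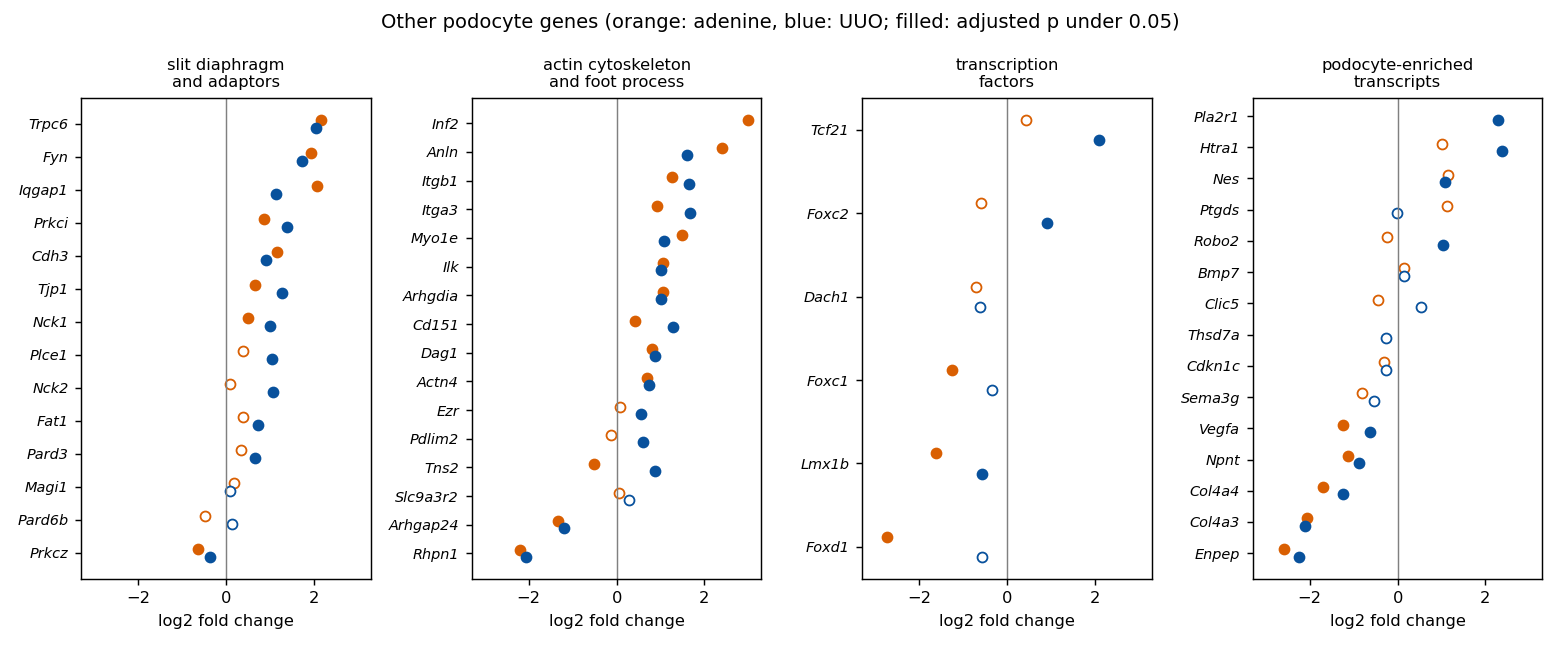
Log2 fold changes of the tested genes of 4 podocyte lists in the adenine (orange) and UUO (blue) models, filled where the adjusted p was under 0.05. Trpc6, Fyn and Iqgap1 lie to the right in both models and Rhpn1, Arhgap24, Enpep, Col4a3 and Col4a4 to the left, each with the same sign after median-of-ratios scaling; Tcf21 and Tns2 differ between the models.

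Of 6 podocyte transcription factor genes, 0 rose (also 0 at an unadjusted p under 0.05 in limma) and 3 fell in the adenine model and 2 rose and 1 fell in the UUO model (1 and 4 after median-of-ratios scaling). Lmx1b, a LIM homeobox factor that controls glomerular basement membrane and slit diaphragm genes, fell in both (-1.62 and -0.56), the UUO call being lost without sham rat 1, sham rat 2 or any UUO rat. The forkhead factor genes Foxd1 (-2.73) and Foxc1 (-1.26) fell in the adenine model, and without control rat 3 or adenine rat 3 Foxd1 alone passed. In the UUO model Tcf21 (2.10) and Foxc2 (0.91) rose, the latter not after median-of-ratios scaling (0.33, adjusted p = 0.184). Tcf21 changed by 1.66 more on the log2 scale in the UUO than in the adenine model (adjusted p = 0.000906). Tcf21 is also a gene of interstitial fibroblasts, whose markers rose in both models, as given for the marker lists. In the adenine model Tcf21 did not pass the test (0.44, adjusted p = 0.139, limma). The cell source of its transcripts was not tested.

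Of the other podocyte-enriched transcripts, 0 of 13 tested rose and 5 fell in the adenine model by limma (2 rose and 8 fell without control rat 2), and 4 of 15 rose and 5 fell in the UUO model. After median-of-ratios scaling 2 rose and 9 fell in the UUO model. Col4a3 and Col4a4, which encode collagen IV chains that podocytes lay down in the glomerular basement membrane, fell by 2.07 and 1.69 on the log2 scale in the adenine model and by 2.12 and 1.25 in the UUO model. In control rat 2 Sema3g of this list was at 10.3 FPKM, against 74.2 and 70.4 FPKM in control rats 1 and 3. There Col4a3 was at 7.58 FPKM (9.69 and 12.4 FPKM in rats 1 and 3) and Col4a4 at 18.4 FPKM (22.4 and 19.2 FPKM). Which cells the transcripts of this list came from was not tested. Enpep, aminopeptidase A, which tubule cells also make, fell by 2.59 and 2.24. Vegfa and Npnt, named after their values were seen, fell by 1.25 and 1.12 in the adenine and by 0.63 and 0.87 in the UUO model. In control rat 2 Vegfa was at 59.6 FPKM (74.1 and 88.1 FPKM in rats 1 and 3) and Npnt at 12.2 FPKM (22.5 and 16.4 FPKM). The 4 that rose in the UUO model were the serine protease gene Htra1 (2.37), Pla2r1 (2.28), which encodes the main autoantigen of membranous nephropathy, the nestin gene Nes (1.09) and, named after its value was seen, Robo2 (1.03), a receptor for Slit2. Pla2r1 reached 0.5 FPKM in the UUO kidneys alone, so it had to differ, and Nes (0.49, adjusted p = 0.085, limma) and Robo2 (0.45, adjusted p = 0.255) lost theirs after median-of-ratios scaling. At an unadjusted p under 0.05, 2 genes of the list rose in the adenine model, Htra1 and Nes.

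Markers of other cell types changed in the same kidneys. Of 7 macrophage markers all rose in each model, and their summed level went from 43.7 to 48.3 FPKM in control to between 1016 and 1386 FPKM in adenine kidneys, and from 48.9 to 61.0 FPKM in sham to between 552 and 845 FPKM in UUO kidneys. All tested fibroblast markers rose, from 53.2 to 95.2 FPKM to between 496 and 700 FPKM in the adenine model (5 markers) and from 62.8 to 72.8 FPKM to between 988 and 2356 FPKM in the UUO model (6 markers). Of 7 glomerular endothelial markers 4 rose and 1 fell in the adenine model, and 3 rose in the UUO model, where 56.1% of all tested genes rose. Their median log2 fold change in the UUO model was 0.35, and -0.24 after median-of-ratios scaling. They summed to between 107 and 138 FPKM in control, 132 and 164 FPKM in adenine, 131 and 174 FPKM in sham and 309 and 339 FPKM in UUO kidneys. Of 4 parietal epithelial markers 2 and 3 rose, with sums of 40.7 to 71.0 FPKM in control, 163 to 183 FPKM in adenine, 62.8 to 92.3 FPKM in sham and 174 to 195 FPKM in UUO kidneys. Most of these sums came from Pax8 and Cd44. Mean Cd44 went from 3.08 to 85.7 FPKM in the adenine and from 4.24 to 59.0 FPKM in the UUO model. Mean Pax2 was 5.82 FPKM in control and 5.85 FPKM in adenine kidneys. Which cells made these transcripts was not tested.

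Mesangial and pericyte markers rose for 3 of 7 and 5 of 7 genes, beside 39.6% and 56.1% of all tested genes. They summed to 34.3 to 74.3 FPKM in control, 110 to 117 FPKM in adenine, 61.0 to 112 FPKM in sham and 122 to 343 FPKM in UUO kidneys. Proximal tubule markers fell for 4 of 7 genes in each model, while Slc5a12, named after its value was seen, rose in the adenine model from 0.733 ± 0.950 to 8.81 ± 4.93 FPKM (adjusted p = 0.013, limma). Their sum went from 1428 to 2014 FPKM to between 151 and 414 FPKM and from 1899 to 2108 FPKM to between 275 and 500 FPKM. Distal nephron and collecting duct markers fell for 4 of 6 and 6 of 6 genes, from 1558 to 2340 FPKM to between 196 and 430 FPKM and from 2565 to 3229 FPKM to between 119 and 262 FPKM. T and B cell markers rose for 4 of 5 and 5 of 5 tested genes, with sums of 5.51 to 6.95 FPKM in control, 18.0 to 32.5 FPKM in adenine, 4.29 to 7.10 FPKM in sham and 40.1 to 121 FPKM in UUO kidneys. Of the mesothelial markers Msln rose in both models, with sums of the list of 0.0521 to 1.97 FPKM in control, 1.58 to 5.39 FPKM in adenine, 0.0268 to 0.961 FPKM in sham and 49.2 to 60.6 FPKM in UUO kidneys. Itgam of the macrophages in both models, and Lum of the fibroblasts, Ms4a1 of the B cells and Upk3b and Upk1b of the mesothelium in the UUO model, reached 0.5 FPKM in the diseased kidneys alone, so they had to differ and their calls add no support. No marker of these 9 lists was at its table's lowest value throughout a group, except Lrrn4 of the mesothelium in sham kidneys. Control rat 2 had the lowest sum of the control group for glomerular endothelial, mesangial and pericyte, proximal tubule and distal nephron markers and the highest for parietal epithelial, fibroblast and mesothelial markers. The part of these cell types in the values of the podocyte genes was not tested.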

How the data were processed

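Kidney RNA of 12 rats was measured in 4 groups of 3, grouped by their labels. The authors deposited FPKM values per gene in 2 tables, which were fitted separately. The submitters' processing notes name cutadapt 1.9, HISAT2 2.0.4, StringTie 1.3.4d, edgeR and DESeq2; the genome build of the values is not given in the sources used here. Read depth is unknown, so precision rests on the spread between rats and no counting interval is given.

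Values were analysed as log2(FPKM + 0.1), which understates changes of low genes, for the 15029 and 15043 entries that reached an FPKM of 0.5 in 3 or more samples of their table. Each model was fitted with limma 3.58.1 in R 4.3.3 (lmFit, eBayes with trend), with Benjamini-Hochberg adjustment over all tested entries and a threshold of 0.05. Differences between the models were the differences of the log2 fold changes over the root of the summed squared SE, with t on the summed degrees of freedom, adjusted over all genes tested in both. Ratios were tested by exact two-sided permutation over the 20 splits of 6 samples. Ratios, lists and promoters were handled in Python 3.11.15 (pandas 2.3.3, numpy 2.4.6), and fits were tested on simulated data.

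The podocyte genes and the other lists were chosen with earlier results of these data known. Some genes of these lists are not reported here. Named are the 8 genes, of each list up to 3 genes past the threshold per direction and model with the largest change, and the 5 genes most like Nphs1; others are said to be named after their values were seen. Alternatives were the removal of the filter, an FPKM minimum of 1, a pseudocount of 0.01 or 1, 3 other scalings, eBayes without trend, a replicate block, the log2 ratio of mean FPKM and leaving out each rat in turn. Ratios without each rat were added after seeing the data.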

Additional observations from a re-analysis of the deposited data

How the results depend on the processing

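Kirrel1 rose in both models under every alternative with a test. Other results moved as follows; the cause was not tested. With median-of-ratios scaling, quantile normalization and rescaling to the same sum, in that order, the podocyte genes that fell in the UUO model numbered 3, 3 and 0 (1 as deposited), those that rose 1, 1 and 2 (2 as deposited), and 1 was a DEG after rescaling to the same sum. In the adenine model 3 rose after rescaling and 2 fell after quantile normalization. Nphs1 in the UUO model passed the test after median-of-ratios scaling (-1.39) and quantile normalization (-1.42), as did Wt1 (-0.86 and -0.98), while Synpo no longer did (0.58 and 0.57), and the values of Ptpro (-0.34 and -0.22) and, with the former, of Cd2ap (-0.035) turned negative. In the adenine model Nphs1 passed after quantile normalization (-1.99, adjusted p = 0.0459, limma) and Synpo (1.71) and Cd2ap (1.10) after rescaling to the same sum. Without a filter or with a minimum FPKM of 1, 0 podocyte genes fell in the UUO model by limma; Magi2 was at -0.98 (adjusted p = 0.114) without a filter and at -0.80 (0.0647) after rescaling.

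Among the lists, slit diaphragm genes that rose were 4 and 4 (adenine) and 7 and 7 (UUO) with the former 2 scalings, and those that fell 2 and 2 (adenine), 3 and 2 with these scalings and 0 without a filter or after rescaling (UUO; 1 by limma as deposited). Actin genes that rose in the UUO model were 6 with median-of-ratios scaling. Transcription factor genes that rose were 1 after rescaling (adenine; 0 as deposited) and 1 and 1 (UUO; 2 as deposited), and those that fell in the UUO model 4 and 4, and 0 without a filter or after rescaling. Podocyte-enriched genes that rose were 1 without a filter and 2 after rescaling (adenine) and 2 and 2 (UUO), and those that fell 9 with median-of-ratios scaling (UUO).

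Samples with the same replicate number did not deviate together in the adenine model (r from -0.123 to -0.049) and only weakly in the UUO model (0.050 to 0.105, each UUO sample correlating best with its own number), so the numbers were not taken to pair the rats. With a replicate block 0 podocyte genes fell in the adenine model (Podxl -1.46, adjusted p = 0.0586) and 2 in the UUO model, Nphs1 among them (-0.80, adjusted p = 0.0235), and 1 transcription factor gene fell in the adenine model.

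Leaving out each rat in turn gave these ranges in the adenine model: podocyte genes that rose 1 to 2, that fell 0 to 3 and DEGs 0 to 1, slit diaphragm genes that fell 1 to 2, transcription factor genes that rose 0 to 1 (1, Tcf21, without adenine rat 1) and fell 1 to 3, and podocyte-enriched genes that rose 0 to 2 and fell 4 to 8 (8 without control rat 2). Log2 fold changes were -2.43 to -1.07 for Nphs1, -1.94 to -1.17 for Podxl, -1.71 to -0.30 for Wt1, 0.68 to 1.89 for Synpo and 0.54 to 1.13 for Cd2ap. In the UUO model podocyte genes that fell were 0 to 1 and DEGs 0 to 1, slit diaphragm genes that fell 0 to 1, transcription factor genes that fell 0 to 1 and podocyte-enriched genes that rose 2 to 5, with log2 fold changes of -1.05 to -0.43 for Nphs1, -0.052 to 0.45 for Ptpro (negative without sham rat 1) and -1.13 to -0.90 for Magi2. Differences between the models were 0.27 to 1.64 for Nphs1, 0.040 to 1.44 for Wt1, -0.068 to 1.33 for Podxl (negative without UUO rat 2), -0.71 to 0.49 for Synpo and -1.10 to 0.081 for Ptpro (both positive without control rat 2) and -0.57 to 0.026 for Cd2ap (positive without adenine rat 3). With 3 rats a group and no read counts, small changes of low genes such as Magi2 were not detectable.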
